A study of Mus musculus with 37 samples.

Results

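The brush border hydrolases and nutrient transporters were followed through RNA sequencing of mouse jejunal organoids, 3-dimensional epithelial cultures grown from intestinal crypts, that had been given vasoactive intestinal peptide (VIP) or left untreated. The 10 genes were chosen by symbol, Alpi, Sis, Lct, Anpep, Slc5a1, Slc15a1, Treh, Mep1a, Mep1b and Dpp4, out of 31533 genes in the 3 count tables, and each of them was listed in every table. Whole organoids came from C57Bl/6 mice and were cultured with 100 nM VIP for 72 h (4 mice) or without it (3 of these mice). Sorted Lgr5-EGFP+ cells came from organoids of Lgr5-EGFP-IRES-CreERT2 mice, in which the Lgr5 locus drives the green fluorescent protein EGFP in stem and progenitor cells, also with 100 nM VIP for 72 h or without it (4 mice each). In a separate irradiation experiment, sorted Lgr5-EGFP+ cells of the same mouse line came from organoids exposed to 6 Gy or not irradiated, each with 100 nM VIP for 48 h or without it (4 mice in each of the 4 groups). All mice were adults, the experiments used different animals, and every culture with a given mouse number descended from that animal.

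The brush border is the carpet of microvilli on the luminal face of enterocytes, the absorptive cells of the small intestine. Its membrane carries disaccharidases that split dietary sugars, peptidases that trim peptides, an alkaline phosphatase that detoxifies bacterial lipopolysaccharide, and transporters that take up the released sugars and peptides. Their transcripts accumulate as cells leave the crypt and mature along the villus, and they are used as markers of enterocyte differentiation. VIP is a neuropeptide released by enteric neurons that signals through receptors coupled to adenylate cyclase.

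Each library captured the 3′ ends of transcripts and gave every molecule its own barcode, a unique molecular identifier (UMI). Levels, given as counts per 1e6 UMIs of the sample (CPM), can therefore be compared between genes without a length correction. Samples held 3722716 to 6330404 UMIs in whole organoids (7 samples from 13 libraries), 575242 to 1104126 in the Lgr5-EGFP+ cells of the 72 h experiment (8 samples) and 1075715 to 1876729 in the irradiation experiment (16 samples). The compartments were checked by marker genes. The enterocyte gene Fabp1 lay at 5797 to 8785 CPM in untreated whole organoids and at 48.9 to 558 CPM in untreated sorted cells of the 72 h experiment, and the stem cell gene Olfm4 at 1351 to 3495 and 3369 to 4904 CPM. In untreated, non-irradiated cells of the irradiation experiment Fabp1 lay at 116 to 244 CPM. Olfm4 lay at 2472 to 3454 CPM there, within the range of whole organoids. Paneth cell markers summed to 11825 to 20667 CPM in untreated whole organoids. In untreated, non-irradiated sorted cells they summed to 4849 to 13991 CPM (72 h) and 9916 to 14730 CPM (irradiation experiment), overlapping ranges. Lgr5 itself, the gene behind the sorting gate, was not higher in the sorted cells, with 42.4 to 102 CPM in untreated whole organoids, 13.2 to 50.6 CPM in the sorted cells of the 72 h experiment and 12.2 to 28.3 CPM in those of the irradiation experiment. In bulk samples of this kind, fewer cells of a type and less RNA per cell cannot be told apart.

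One VIP-labelled library of whole organoids correlated more with untreated than with VIP-treated libraries of other mice, and touches every VIP result in that experiment. It is the second of the pair of technical replicate libraries made from the VIP-treated culture of mouse 3. Over 9924 genes, its log2 CPM correlated with that of the first library of the same culture at r = 0.933. The other pairs of technical replicates gave 0.981 to 0.989, a description across genes, which are not independent replicates. Against libraries of other mice, its median r was 0.983 for untreated and 0.974 for VIP-treated ones. The first library of the culture gave 0.916 and 0.950, and the untreated library of mouse 3 gave 0.934 and 0.946. Lgr5 was at 43.3 and 42.4 CPM in these libraries, against 95.2 CPM in the second library. The low r of the pair and Lgr5 therefore do not single out the second library. Clca1, a goblet cell marker, was at 52.3 CPM in it and at 325 CPM in the first library. It lay at 173 to 252 CPM in VIP libraries of other mice and at 40.2 to 60.9 CPM in untreated libraries. Fabp1 was at 8180 CPM in the second and 3027 CPM in the first library. Its range was 5374 to 6037 CPM in VIP libraries of other mice and 5797 to 9159 CPM in untreated libraries. The second library held 135.3 CPM of Alpi, against 374 in the first library of the culture, 281 to 475 in the other VIP libraries and 210.1 in the untreated culture of mouse 3. It held 44.1 CPM of Treh, against 14.9 in the first library and 43.5 in the untreated culture of mouse 3, and 104.6 CPM of Mep1b, against 324 in the first library. It held 669.5 CPM of Sis, where the first library held 157.6 and the untreated culture of mouse 3 held 289. For Alpi, Treh, Mep1b and Sis the library therefore lay nearer to untreated libraries of some mouse than to its own twin. For Sis it also lay within the 355 to 685 CPM of the VIP-treated cultures, so that gene does not tell the groups apart. The values below use both libraries, summed as deposited, and are followed by the values without this library.

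**Figure D1:**
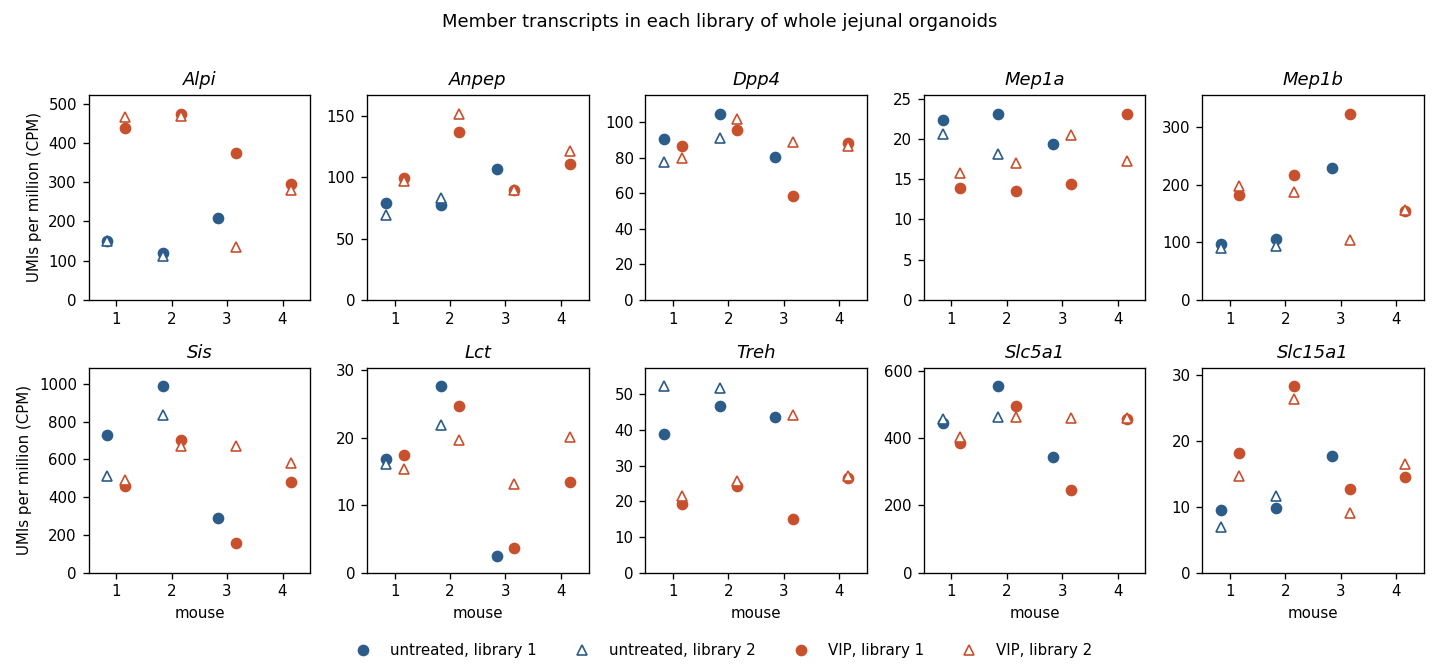
Level of each of the 10 genes (CPM, linear axis from 0) in each library of whole organoids, by mouse. Blue marks untreated and orange VIP-treated cultures, and filled circles and open triangles are the first and second technical replicate libraries. In VIP-treated mouse 3 the triangle of Alpi is at 135.3 and the circle at 374, and for Treh they are at 44.1 and 14.9.

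In untreated whole organoids the 10 transcripts together made up 1606 ± 285 CPM (SD, n = 3). Sis (sucrase-isomaltase, which splits sucrose and the ends of starch) was the most abundant with a mean of 605 CPM and a range of 289 to 906, followed by Slc5a1 (the sodium-glucose cotransporter SGLT1) with a mean of 434 and a range of 345 to 505 CPM. Their ranges overlapped, so the order of this pair was not resolved. Alpi (intestinal alkaline phosphatase) lay at 116 to 210.1 CPM and Mep1b (the meprin beta subunit of a membrane metalloprotease) at 93.7 to 230 CPM, again overlapping. The peptidases Dpp4 (dipeptidyl peptidase 4) and Anpep (aminopeptidase N) lay at 80.3 to 97.6 and 74.0 to 107 CPM. Below them and without overlap came Treh (trehalase, which splits trehalose) at 43.5 to 49.4 CPM and then Mep1a (the meprin alpha subunit) at 19.3 to 21.5 CPM. Lct (lactase) at 2.42 to 24.5 CPM and Slc15a1 (the peptide transporter PEPT1) at 8.14 to 17.7 CPM had the lowest means, and their ranges overlapped each other, that of Lct also with Mep1a. The spread between mice was thus largest, relative to the level, for Lct, Mep1b and Sis, with mouse 3 lowest for Lct and Sis and highest for Mep1b, and smallest for Mep1a and Treh.

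Every one of the 10 transcripts had a lower mean in untreated sorted Lgr5-EGFP+ cells than in untreated whole organoids, in both sorted experiments. For Lct the samples overlapped, at 2.42 to 24.5 CPM in whole organoids and 0 to 6.36 CPM in the sorted cells of the 72 h experiment. The ratio of the mean levels, whole organoids over sorted cells of the 72 h experiment, was 59.5 for Alpi, 17.8 for Slc15a1, 13.0 for Mep1b, 10.7 for Sis, 9.05 for Treh, 7.69 for Lct, 7.33 for Anpep, 5.45 for Slc5a1, 4.09 for Mep1a and 2.15 for Dpp4. Against the sorted cells of the irradiation experiment without irradiation, Dpp4 and Mep1a again had the lowest ratios, both 3.11, and Lct (46.0), Alpi (31.1) and Slc15a1 (27.0) the highest. Over 11067 genes with 10 or more UMIs in every untreated whole-organoid sample, the median log2 ratio of the latter comparison was 0.21. This filter used whole organoids only and leaves out Lct, whose lowest sample held 9 UMIs. A small constant was added to each mean for this median, unlike in the ratios above. The 2 compartments came from different mice and separate tables, so these ratios describe levels and were not tested. Slc5a1 had the highest mean of the 10 transcripts in the untreated sorted cells, at 79.6 ± 6.01 CPM (SD, n = 4) in the 72 h experiment. Sis spread from 5.06 to 106.5 CPM there, so the order of this pair was again not resolved. Slc15a1 and Lct reached means of 0.687 and 1.88 CPM there and were at the limit of what this depth shows.

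**Figure D2:**
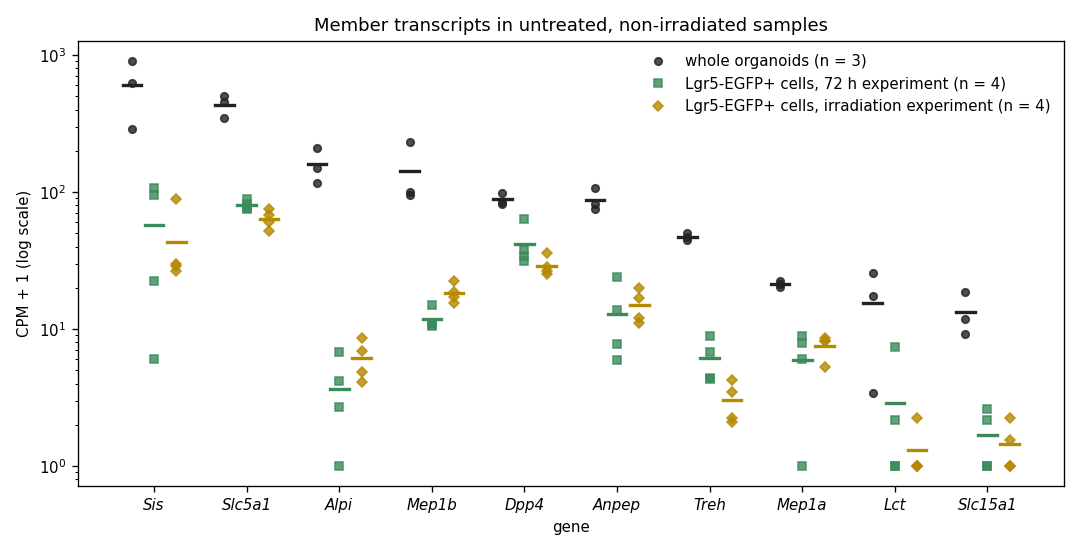
Levels of the 10 genes in untreated, non-irradiated samples of the 3 experiments, with CPM + 1 on a log axis. Points are samples and bars are group means; Alpi is at 116 to 210.1 CPM in whole organoids and has a mean of 2.66 CPM in the sorted cells of the 72 h experiment, whereas the Dpp4 means are 87.4 and 40.6 CPM.

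The positions of the genes are given on GRCm38 from GENCODE M21. Alpi is at chr1:87098002-87101606 on the minus strand, Sis at chr3:72888557-72967863 (minus), Lct at chr1:128284756-128328318 (minus), Anpep at chr7:79821803-79861059 (minus), Slc5a1 at chr5:33104219-33162870 (plus), Slc15a1 at chr14:121459621-121505252 (minus), Treh at chr9:44673233-44686305 (plus), Mep1a at chr17:43474324-43502812 (minus), Mep1b at chr18:21061923-21100199 (plus) and Dpp4 at chr2:62330073-62412231 (minus). Treh overlaps Phldb1 on the opposite strand, Dpp4 overlaps the antisense gene Gm13561, Mep1b overlaps a pseudogene on the opposite strand, Slc5a1 overlaps 2 pseudogenes, and Anpep overlaps Gm44974 on its own strand. Whether strand was used in counting is not given in the sources used here, so reads of such pairs may not have been told apart. Alpi is also one of a family of similar alkaline phosphatase genes.

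VIP shifted 3 of the 10 transcripts in whole organoids. Alpi and Mep1b rose, Treh fell, and the other 7, among them the sucrase gene Sis and both transporters, did not pass the test. Over all 12727 genes tested, 4.82% passed, 3.72% higher and 1.1% lower. The share of 3 of 10 was above that background. It is a description, because the 10 genes were chosen with earlier results of these data known and the count depended on the processing. The median log2 fold change of the 10 was 0.04, against −0.00 over all genes. VIP-treated and untreated cultures of the same mouse were compared by the quasi-likelihood test of edgeR, with p-values adjusted over all genes by the Benjamini-Hochberg (BH) method and a threshold of 0.05. Mouse 4 had no untreated culture and adds nothing to these fold changes.

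Alpi was at 149.9, 116 and 210.1 CPM in the untreated cultures of mice 1 to 3, and at 453, 472, 282 and 289 CPM in the VIP-treated cultures of mice 1 to 4. The 2 groups did not overlap, and mouse 3 had the highest untreated and the lowest treated level. The log2 fold change was 1.35 (SE 0.22, 95% confidence interval 0.87 to 1.83, BH-adjusted p = 0.00258 from edgeR), a 2.55-fold rise, with 3 of 3 mice higher. The log2 differences within mice 1 to 3 were 1.61, 2.05 and 0.38. The adjusted p was 0.16 with DESeq2 and 0.0753 without the mouse as a block, and in the latter fit the log2 fold change was 1.22.

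Treh moved the other way. It was at 45.6, 49.4 and 43.5 CPM in the untreated cultures and at 20.3, 25.1, 26.2 and 26.8 CPM in the VIP-treated cultures. The groups did not overlap, although the 26.2 CPM of treated mouse 3 combine libraries at 14.9 and 44.1 CPM. The log2 fold change was −0.96 (SE 0.12, 95% confidence interval −1.23 to −0.70, BH-adjusted p = 0.000338 from edgeR), 1.95-fold lower with VIP, with 3 of 3 mice lower. Treh was also the 1 member past the threshold with DESeq2 and without the mouse as a block.

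Mep1b was at 93.7, 99.4 and 230 CPM in untreated and at 190.6, 201, 239 and 155 CPM in VIP-treated cultures. The groups overlapped, because untreated mouse 3 lay above 3 of the 4 treated cultures, yet within each of the 3 mice the treated culture was higher. In mouse 3 the log2 difference was only 0.019, below the median of 0.032 over all genes tested. In mice 1 and 2 it was 1.04. The log2 fold change was 0.68 (SE 0.16, BH-adjusted p = 0.0283 from edgeR), a 1.61-fold rise. This call was the least firm of the 3: the adjusted p was 0.134 without mouse 1, 0.114 without mouse 2, 0.667 with DESeq2 and 0.844 without the mouse as a block, where the log2 fold change was 0.46.

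The partner subunit Mep1a, with which meprin beta assembles, did not pass. It was at 21.5, 20.4 and 19.3 CPM in untreated and 14.8, 15.5, 16.7 and 20.5 CPM in VIP-treated cultures, lower in 3 of 3 mice but short of the threshold (log2 fold change −0.39, SE 0.15, BH-adjusted p = 0.197). Among the peptidases, Anpep had a log2 fold change of 0.33 (SE 0.16, BH-adjusted p = 0.342) and Dpp4 one of −0.06 (SE 0.10, BH-adjusted p = 0.832). Of the disaccharidases other than Treh, Sis had −0.17 (SE 0.11, BH-adjusted p = 0.512) and Lct 0.15 (SE 0.22, BH-adjusted p = 0.815). The transporters Slc5a1 and Slc15a1 had −0.12 (SE 0.08, BH-adjusted p = 0.548) and 0.59 (SE 0.30, BH-adjusted p = 0.356). The 95% confidence interval was −0.30 to 0.06 for Slc5a1 and −0.28 to 0.16 for Dpp4, and wider, −0.05 to 1.23, for Slc15a1.

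Without the second library of VIP-treated mouse 3, a setting chosen after the data were seen, the same 3 genes passed and Sis passed as well. The log2 fold changes were then 1.49 for Alpi (adjusted p = 0.000189), −1.18 for Treh (0.000114), 0.84 for Mep1b (0.000416) and −0.53 for Sis (0.00453), in edgeR's test. Without the first library of that culture instead, 0 of the 10 genes and 0 of all genes passed, and Alpi (1.04), Treh (−0.74) and Mep1b (0.33) had the same signs. Without mouse 3 altogether, which leaves 2 pairs, 6 of the 10 genes passed, with log2 fold changes of 1.83 for Alpi, 1.04 for Mep1b, −1.05 for Treh, −0.37 for Sis, 0.65 for Anpep and 1.21 for Slc15a1, and 1668 of all genes passed. The calls for Sis, Anpep and Slc15a1 thus depended on how mouse 3 was handled.

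The 300 bases around the RefSeq start sites, 250 before and 50 after, are shown for Alpi and Treh, which moved in opposite directions. These were the 2 genes of the 10 with non-overlapping groups, and the share of all genes with such groups was not counted. Capitals mark matches, on either strand, to letters bound by HNF4 (CAAAGTCC), a nuclear receptor of enterocytes, and to the TATA box (TATAAA). Coordinates are of GRCm38.p6, chr1:87101557-87101856 on the minus strand for Alpi and chr9:44672983-44673282 on the plus strand for Treh.
Alpi: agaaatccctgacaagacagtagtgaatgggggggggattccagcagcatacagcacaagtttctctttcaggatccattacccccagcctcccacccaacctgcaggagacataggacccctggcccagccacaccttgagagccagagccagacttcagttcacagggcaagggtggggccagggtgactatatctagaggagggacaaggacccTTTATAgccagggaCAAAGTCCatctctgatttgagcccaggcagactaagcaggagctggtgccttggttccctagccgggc
Treh: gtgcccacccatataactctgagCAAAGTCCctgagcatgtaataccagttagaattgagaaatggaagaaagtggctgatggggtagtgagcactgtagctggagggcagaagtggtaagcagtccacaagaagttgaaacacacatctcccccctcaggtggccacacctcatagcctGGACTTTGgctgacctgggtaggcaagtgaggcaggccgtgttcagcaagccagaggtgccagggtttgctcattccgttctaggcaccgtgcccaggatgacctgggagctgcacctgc
Alpi held the HNF4 letters with their first base 19 bases before the start and the TATA letters, reversed, 33 bases before it. Treh held the HNF4 letters at 227 bases before the start and, reversed, at 70 bases before it. Of 32851 RefSeq promoters of the same length, 1.42% held these HNF4 letters and 13.6% the TATA letters, and among the 9 of the 10 genes found in the table the HNF4 letters were in Alpi and Treh and the TATA letters in Alpi, Sis and Dpp4. Letters of the cAMP response element (TGACGTCA, in 1.79% of promoters, and its part TGACG, in 20.8%), of HNF1 (GTTAATNAT, in 0.801%) and of GATA factors (AGATAAG, in 3.04%) were in 0 of these 9 windows, and those of CDX2 (CCATAAA, in 2.75%) in that of Mep1a. A match of letters is not a binding site, and its absence says only that the letters are not in these windows.

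Other genes of the brush border also changed in VIP-treated whole organoids. Over all genes, 3.72% passed higher and 1.1% lower with both libraries of VIP-treated mouse 3. Of 12 other brush border hydrolases tested, 1 rose, Enpp3 (an ectonucleotide pyrophosphatase, log2 fold change 3.10, SE 0.26), and 1 fell, Naaladl1 (a peptidase, −0.82, SE 0.13), with a list median of 0.08. Of 32 other nutrient transporters, 6 rose and 3 fell (median 0.04). The 3 with the smallest p were Slc40a1, the iron exporter ferroportin (log2 fold change 2.03), Slc2a1, the glucose transporter GLUT1 (0.70), and Slc28a2, a nucleoside transporter (1.54). Of 21 genes of microvillus structure, 6 rose and 0 fell (median 0.28), led by Ezr, which links actin to the membrane (0.57), Tmigd1, an adhesion molecule of the brush border (1.60), and Slc9a3r1, an ezrin-bound scaffold (0.65). Of 22 enterocyte transcription factors, Klf4 (0.89) and Maf (0.94) rose and Nr1i3 (−0.53) fell, with a median of 0.04. Of 8 markers of villus tip enterocytes 6 rose and 0 fell (median 0.93), led by Enpp3, Ada, an adenosine deaminase (1.43), and Slc28a2. These lists share some genes, among them Enpp3, Slc28a2 and Klf4. Without the second library of VIP-treated mouse 3, the counts of rises and falls were 2 and 1 for hydrolases, 8 and 6 for transporters, 8 and 1 for microvillus genes and 6 and 0 for the villus tip.

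Markers of other cell types moved with these results, where 3.72% of all genes passed higher and 1.1% lower. Of 8 goblet cell markers 6 rose and 0 fell, and their summed level was 2310 to 2601 CPM in untreated and 3869 to 4202 CPM in VIP-treated whole organoids. Of 12 enterocyte markers other than the 10 genes, 3 rose and 4 fell, with summed levels of 18134 to 19572 and 14698 to 17637 CPM. Of 10 stem cell markers and 8 Paneth cell markers 0 passed, while 2 of 8 enteroendocrine markers rose. Without the second library of VIP-treated mouse 3, 3 of 8 Paneth cell markers rose and 1 stem cell marker fell, and without mouse 3, 5 of 7 Paneth cell markers rose and 2 stem cell markers fell. Tuft cell markers summed to 12.6 to 15.1 and 8.95 to 10.6 CPM with Il25 at 0, and markers of cells outside the epithelium to 12.4 to 14.1 and 10.9 to 13.4 CPM, with Col1a1 and Des at 0 in both groups. The part of these shifts in the changes of Alpi, Mep1b and Treh was not tested.

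In sorted Lgr5-EGFP+ cells after 72 h of VIP, no member passed the test, and only 3 of the 10 were abundant enough to be tested. Over all 6778 genes tested, 0.0885% passed. Slc5a1 was at 75.9, 81.0, 74.0 and 87.4 CPM in untreated and at 58.9, 69.5, 80.0 and 83.9 CPM in VIP-treated cells of mice 1 to 4, overlapping ranges (log2 fold change −0.17, SE 0.18). Sis was at 5.06, 93.7, 21.4 and 106.5 CPM in untreated and at 32.6, 34.8, 66.4 and 114 CPM in VIP-treated cells, a spread between mice that far exceeded the difference (0.22, SE 0.31). Dpp4 was at 30.4, 62.5, 32.9 and 36.6 CPM in untreated and at 47.1, 31.3, 37.4 and 34.8 CPM in VIP-treated cells (−0.10, SE 0.26). None of the 3 had an unadjusted p under 0.05, where 373 of all genes did, and 0 passed with DESeq2.

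The other 7 genes fell below the count filter in these cells. Alpi, the gene that rose in whole organoids, had 0 to 5 UMIs per untreated sample and 3 to 11 per VIP-treated sample, 8 and 30 in all. Mep1b had 6 to 12 and 7 to 23 UMIs, 30 and 53 in all. Anpep summed to 35 and 46 UMIs, Treh to 14 and 8, Mep1a to 14 and 12, Lct to 5 and 4, and Slc15a1 to 2 and 2. These differences carry no test. The genes of the hydrolase, transporter, microvillus and transcription factor lists gave 0 calls in these cells, and Fcgbp, a goblet cell marker, was the 1 gene of the cell type lists to pass (log2 fold change −0.97).

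The difference between whole organoids and sorted cells in the response to VIP was tested as an interaction across both 72 h experiments. It passed for 0 of the 10 genes, and for 0.147% of 10194 genes tested. With DESeq2 0 of the 8 members with an adjusted p passed as well, and 636 of all genes had an unadjusted p under 0.05. The test was imprecise for most of them. The SE of the log2 difference was 0.91 for Alpi, 0.56 for Mep1b, 0.75 for Treh and 2.16 for Slc15a1, and only for Slc5a1 (−0.05, SE 0.19), Dpp4 (−0.04, SE 0.27) and Sis (0.34, SE 0.38) was it below 0.5. The absence of a call in sorted cells is therefore no sign that Alpi or Treh responded differently there.

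In the irradiation experiment 7 of the 10 genes could be tested. Lct, Slc15a1 and Treh summed to at most 29 UMIs over the 4 samples of any group. Lct had 0 UMIs in the VIP-treated, non-irradiated cells, which allows up to 0.51 CPM (3 counts over the 4 samples, counting error only).

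Anpep and Slc5a1 rose with irradiation in untreated Lgr5-EGFP+ cells, and Mep1b rose in VIP-treated cells. Among untreated cells 2 of the 7 tested genes passed, both higher, where 4.46% of all genes passed, 2.87% in the higher direction. Among VIP-treated cells 1 of 7 passed, again higher, where 7.78% of all genes passed, 4.32% in the higher direction. The 6 Gy and 0 Gy samples of a mouse were set against each other in 1 edgeR fit over the 16 samples.

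Anpep was at 15.7, 11.1, 10.01 and 19.01 CPM in untreated, non-irradiated cells and at 24.1, 22.2, 27.0 and 98.9 CPM in untreated, irradiated cells of mice 1 to 4. The groups did not overlap, and mouse 4 was far above the others after irradiation. The log2 fold change was 1.497 (SE 0.30, BH-adjusted p = 0.00302 from edgeR), a 2.82-fold rise in 4 of 4 mice, and without mouse 4 it was 0.98 (adjusted p = 0.0322). In VIP-treated cells Anpep was at 12.8, 12.7, 13.4 and 6.7 CPM without and at 15.99, 18.4, 18.2 and 35.6 CPM with irradiation. Those groups did not overlap either and 4 of 4 mice were higher, but the log2 fold change of 0.92 (SE 0.35) did not pass (adjusted p = 0.109), and without mouse 4 it was 0.41.

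Slc5a1 was at 74.1, 50.6, 58.9 and 67.5 CPM in untreated cells without irradiation and at 80.0, 74.8, 78.1 and 149.7 CPM after it. The groups did not overlap, by less than 1 CPM at the nearest samples, and mouse 4 was again the highest. The log2 fold change was 0.59 (SE 0.16, BH-adjusted p = 0.0328 from edgeR), a 1.503-fold rise in 4 of 4 mice. The call was lost without mouse 4 (0.35, adjusted p = 0.296), without mouse 3 (0.63, 0.106) or without mouse 2 (0.61, 0.0889), with DESeq2 (adjusted p = 0.0549) and without the mouse as a block (0.0689). In VIP-treated cells the log2 fold change was 0.10 (SE 0.16).

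Mep1b was at 12.8, 14.2, 7.7 and 9.1 CPM in VIP-treated, non-irradiated cells and at 18.6, 24.0, 17.1 and 24.2 CPM in VIP-treated, irradiated cells. The groups did not overlap, and the log2 fold change was 0.94 (SE 0.24, BH-adjusted p = 0.0129 from edgeR), a 1.92-fold rise in 4 of 4 mice. The adjusted p was 0.0705 without mouse 3, 0.107 without mouse 4 and 0.0529 with DESeq2. In untreated cells Mep1b was at 14.4, 21.6, 16.1 and 17.7 CPM without and 27.1, 23.8, 21.4 and 42.8 CPM with irradiation, higher in 4 of 4 mice and just short of the threshold (0.68, SE 0.21, BH-adjusted p = 0.0615). The side of the threshold thus differed between treatments, but the difference between the fold changes was not past the threshold (0.26, SE 0.32).

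The remaining genes did not pass in either treatment. Sis had log2 fold changes with irradiation of 0.82 (SE 0.34, BH-adjusted p = 0.196) in untreated and 0.74 (SE 0.41, BH-adjusted p = 0.313) in VIP-treated cells. The value in untreated cells rested on single mice, with 1.59 (adjusted p = 0.00391) without mouse 1 and 0.21 (adjusted p = 0.868) without mouse 4, in the same edgeR test. Alpi had 1.13 (SE 0.50, BH-adjusted p = 0.24) and 0.24 (SE 0.51), and 0.72 and −0.32 without mouse 4. Dpp4 was at 22.3 to 46.3 CPM in untreated, irradiated and 24.1 to 35.2 CPM in untreated, non-irradiated cells (0.13, SE 0.21). Mep1a was the 1 tested gene with a log2 fold change below 0 in untreated cells, −0.31 (SE 0.36), and in VIP-treated cells it had −0.82 (SE 0.39, BH-adjusted p = 0.224). The transcripts of the 2 meprin subunits thus had opposite signs in both treatments, a difference between genes that was not tested.

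The sample of untreated, irradiated mouse 4 stood apart in the 10 genes as a group. They summed to 537 CPM in that sample and to 202 to 251 CPM in the other 3 of its group. The 12 other enterocyte markers summed to 4794 CPM there and to 3030 to 3398 CPM in the other 3. Whether more enterocytes in that sample account for its values was not tested, and each irradiation result above is given with and without mouse 4 where its call depended on it.

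**Figure D3:**
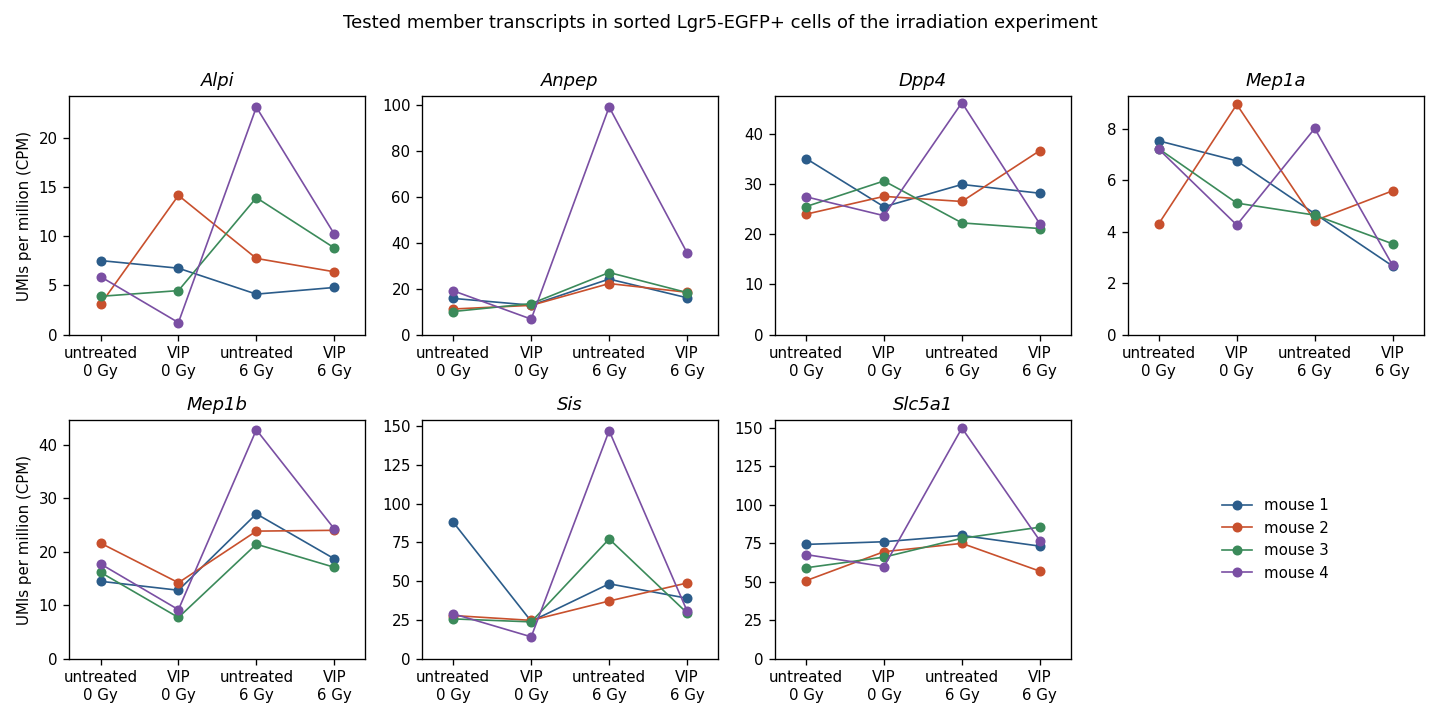
Levels of the 7 tested genes (CPM, linear axis from 0) in the 4 groups of the irradiation experiment, with each line joining the 4 samples of 1 mouse. Mouse 4 peaks in untreated cells at 6 Gy for Anpep (98.9 CPM), Slc5a1 (149.7 CPM) and Sis (147 CPM), while Mep1b is higher at 6 Gy than at 0 Gy in each mouse of both treatments.

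The promoter windows of the 2 genes called in untreated irradiated cells are shown because they moved together in these samples. Coordinates are of GRCm38.p6, chr7:79848161-79848460 on the minus strand for Anpep, a start site inside the longer GENCODE gene, and chr5:33103969-33104268 on the plus strand for Slc5a1. Neither window held any of the letters searched above, and so neither has capitals.
Anpep: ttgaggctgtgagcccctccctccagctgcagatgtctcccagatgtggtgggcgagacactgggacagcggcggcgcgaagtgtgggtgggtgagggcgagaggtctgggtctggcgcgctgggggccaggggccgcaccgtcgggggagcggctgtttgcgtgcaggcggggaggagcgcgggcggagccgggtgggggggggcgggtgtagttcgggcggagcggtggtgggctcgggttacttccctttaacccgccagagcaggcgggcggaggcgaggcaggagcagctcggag
Slc5a1: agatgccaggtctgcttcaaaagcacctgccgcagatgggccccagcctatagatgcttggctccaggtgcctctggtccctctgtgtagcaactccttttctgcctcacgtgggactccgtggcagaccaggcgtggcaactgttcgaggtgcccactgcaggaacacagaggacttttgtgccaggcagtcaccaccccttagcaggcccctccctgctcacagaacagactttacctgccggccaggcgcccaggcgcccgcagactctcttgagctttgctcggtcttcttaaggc

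VIP itself changed none of the 7 tested genes past the threshold in the irradiation experiment. Without irradiation 0 of 7 passed, where 0.742% of all genes passed, and after 6 Gy 0 of 7 passed, where 0.221% of all genes did. DESeq2 gave 0 of 7 after 6 Gy, and without irradiation it gave no adjusted p to any of the 7. At an unadjusted p under 0.05, edgeR gave 2 of the 7 genes without irradiation (Sis and Mep1b) and 4 of the 7 after it (Sis, Anpep, Slc5a1 and Mep1b), against 1237 and 574 of all 9976 genes tested.

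Without irradiation, Mep1b was at 14.4 to 21.6 CPM in untreated and 7.7 to 14.2 CPM in VIP-treated cells, lower in 4 of 4 mice and without overlap, with a log2 fold change of −0.71 (SE 0.25, BH-adjusted p = 0.191). This is the opposite sign to that in whole organoids, where Mep1b rose, but the difference was not past the threshold. With these cells in place of the 72 h sorted cells, the interaction with the compartment was −1.37 for Mep1b (adjusted p = 0.0608 from edgeR), against −0.01 with the 72 h sorted cells, and 0 of the 10 genes passed. Sis was at 87.9, 27.8, 25.6 and 28.8 CPM in untreated and 24.0, 24.6, 23.7 and 14.01 CPM in VIP-treated cells, with a log2 fold change of −0.96 (SE 0.41, BH-adjusted p = 0.327). Without mouse 1, the highest untreated sample, it was −0.43. A fit of these 2 groups alone gave −0.90 for Sis with an adjusted p of 0.0329. Alpi had 0.31 (SE 0.55), Anpep −0.30 (SE 0.38), Slc5a1 0.10 (SE 0.17), Mep1a −0.10 (SE 0.35) and Dpp4 −0.06 (SE 0.21).

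After 6 Gy, 7 of 7 log2 fold changes with VIP were below 0, with a median of −0.58 against −0.00 over all genes. Sis had −1.04 (SE 0.34, BH-adjusted p = 0.47), Anpep −0.88 (SE 0.28, BH-adjusted p = 0.423), Mep1b −0.45 (SE 0.20, BH-adjusted p = 0.789) and Slc5a1 −0.38 (SE 0.16, BH-adjusted p = 0.722). These differences share the untreated, irradiated samples with the irradiation comparison above, including that of mouse 4, and without mouse 4 Sis had −0.46, Anpep −0.48 and Dpp4 0.08.

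The interaction of VIP and irradiation passed for 0 of the 7 genes and for 0% of all 9976 genes, with 634 of them at an unadjusted p under 0.05, and for 0 of the 7 with DESeq2. Slc5a1 was the 1 tested member with an unadjusted p under 0.05, with a log2 difference of −0.48 (SE 0.23, BH-adjusted p = 0.769). Anpep had −0.58 (95% confidence interval −1.55 to 0.40) and Mep1b 0.26 (−0.40 to 0.92). A different response to irradiation with and without VIP was thus not shown for any of these genes, although Anpep and Slc5a1 passed only in untreated and Mep1b only in VIP-treated cells.

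**Figure D4:**
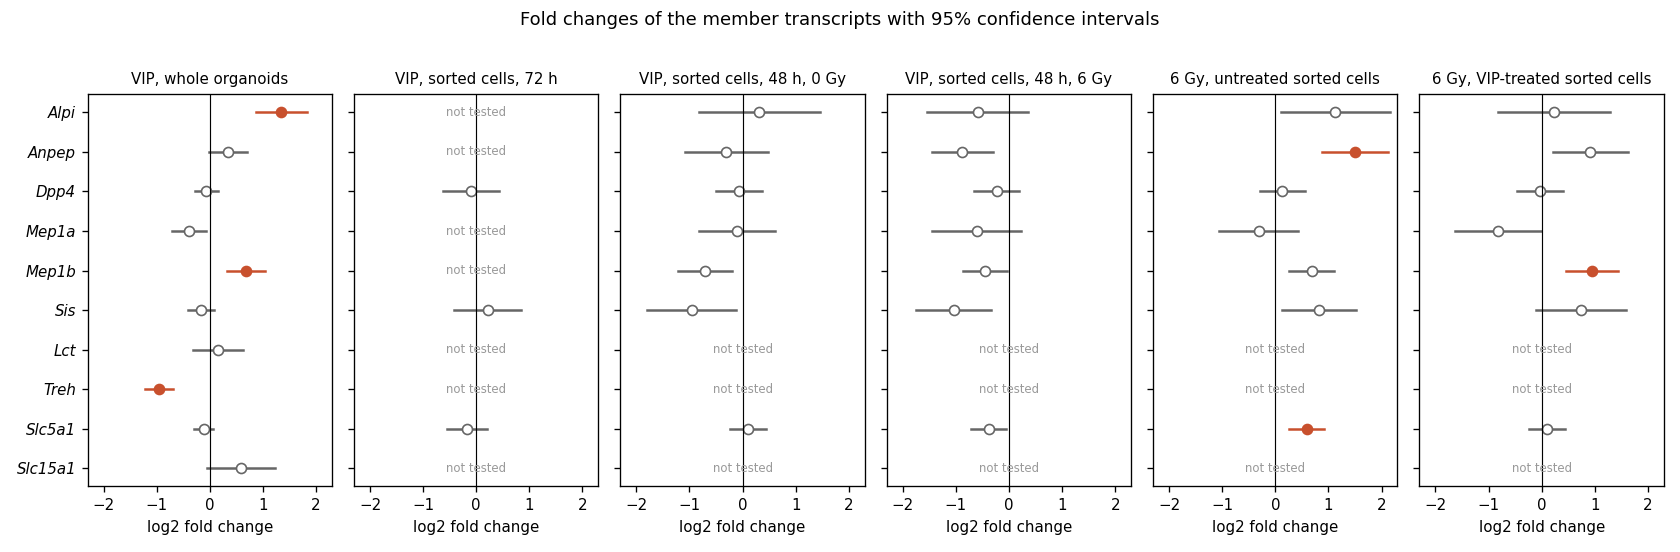
Log2 fold changes of the 10 genes in each of the comparisons of treatment or irradiation, with bars for the 95% confidence interval from edgeR and filled points for an adjusted p of at most 0.05. Alpi (1.35) and Treh (−0.96) stand farthest from 0 in whole organoids, Anpep (1.497) after irradiation of untreated cells, and genes below the count filter are marked as not tested.

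Some other brush border genes passed with irradiation. Over all genes, 4.46% passed in untreated and 7.78% in VIP-treated cells. In untreated cells 1 of 6 other hydrolases rose, Ggt1 (gamma-glutamyltransferase, log2 fold change 1.83), and 1 of 17 other transporters fell, Slc26a3 (a chloride-bicarbonate exchanger, −0.95). Of 19 microvillus genes Ezr rose (0.42) and 0 fell. Of 20 enterocyte transcription factors 1 rose and 5 fell, among them Klf5 (−0.42), Cdx1 (−0.42) and the vitamin D receptor Vdr (−0.80). Of 6 villus tip markers 2 rose, the cell cycle inhibitor Cdkn1a (1.15), also a target of p53, and Krt20 (0.94). Without mouse 4, 0 hydrolases, 0 microvillus genes and 1 villus tip marker rose, and 3 transcription factors fell. In VIP-treated cells 0 hydrolases and 0 microvillus genes passed, the amino acid transporter Slc6a19 rose (2.23), and 4 transcription factors fell, led by Cdx1 (−0.34), Elf3 (−0.31) and Klf5 (−0.29). Without mouse 4, 0 transporters and 0 transcription factors passed in VIP-treated cells.

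Markers of secretory cells also moved with irradiation, where 4.46% of all genes passed in untreated and 7.78% in VIP-treated cells. In untreated cells 7 of 7 Paneth cell markers rose, summing to 9916 to 14730 CPM without and 14847 to 27251 CPM with irradiation, as did 4 of 8 enteroendocrine markers (2447 to 3362 and 4321 to 7478 CPM) and 5 of 8 goblet cell markers (1934 to 3036 and 2790 to 3904 CPM). Of 12 other enterocyte markers 4 rose and 1 fell. Of 9 stem cell markers 0 rose and 2 fell, with sums of 3677 to 4719 and 2711 to 3073 CPM. Without mouse 4, 1 enterocyte marker rose and 1 fell, 3 goblet cell markers rose and 1 stem cell marker fell, while the counts for Paneth and enteroendocrine cells were still 7 and 4. Markers of cells outside the epithelium summed to 20.4 to 28.9 and 36.5 to 77.6 CPM, with Kdr at 0 in both groups, and Vim was the 1 gene of that list tested, and rose (1.31). In VIP-treated cells 7 of 7 Paneth cell, 7 of 8 enteroendocrine and 3 of 8 goblet cell markers rose with irradiation. Of 12 other enterocyte markers 2 rose and 1 fell there, and of 9 stem cell markers 0 rose and 3 fell. Without mouse 4, 7 Paneth cell, 6 enteroendocrine and 3 goblet cell markers rose in these cells. Then 1 enterocyte marker rose and 1 fell, and 5 stem cell markers fell. The part of these shifts in the rises of Anpep, Slc5a1 and Mep1b was not tested. With VIP, 2 of 12 other enterocyte markers fell without irradiation, Fabp1 (−0.95) and Fabp2 (−0.41), and 2 of 12 after 6 Gy, Fabp1 (−1.37) and Rbp2 (−1.60). Of 9 stem cell markers 1 rose in both, Olfm4 (0.57 and 0.35). The villus tip marker Cdkn1a (−0.57) fell without irradiation and the goblet cell marker Fcgbp (−1.05) after 6 Gy. Over all genes, 0.742% passed without irradiation and 0.221% after 6 Gy. Without mouse 4, 1 enterocyte marker fell without irradiation, and 0 stem cell markers rose after 6 Gy, so that the call of Olfm4 there was lost.

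Within mice, most of the tested genes varied together across the 16 samples of the irradiation experiment. After centring the log2 CPM of each mouse, Anpep correlated with Slc5a1 (Pearson r = 0.858), Mep1b (0.846), Sis (0.845) and Alpi (0.813), whereas Mep1a did not follow Anpep (0.044) or its partner Mep1b (−0.0689). The genes most alike to the mean of the 7 were Guca2b, the enterocyte peptide uroguanylin (r = 0.955), Apoa1, an apolipoprotein of lipid absorption (0.951), Tmem150b (0.936), Spink1, a trypsin inhibitor (0.934), and Ggt1 (0.926). These points share mice and include the sample of untreated, irradiated mouse 4, so the values are a description. In the 72 h sorted cells, over 8 samples and the 3 tested members, the genes most alike were Gm6977 (0.997), Lgr4 (0.99), Atp6v0a2 (0.986), Gm4950 (0.985) and Apoc3 (0.984). In whole organoids, where the 6 centred samples amount to 3 differences between treated and untreated cultures, Hspbp1, Calm2, Fkbp1a, Tstd3 and Pea15a had the highest r, which says little at this size.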

How the data were processed

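RNA was sequenced as 3′ libraries with sample barcodes and UMIs. Per gene and library, the authors counted UMIs (Drop-seq pipeline 1.0, GRCm38, GENCODE M25). These raw UMI counts were deposited without normalization, with 0 columns left without a sample. The tables held 27407, 20500 and 27547 genes. Libraries made from the same culture were summed.

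The counts were filtered with filterByExpr by group, scaled with TMM factors and fitted with the mouse as a block in edgeR 4.0.16 (R 4.3.3). Its quasi-likelihood test was adjusted over all genes by the Benjamini-Hochberg method (threshold 0.05). Samples were paired by the animal number in their labels. Across genes, deviations from the group mean correlated at 0.268 to 0.634 within a mouse and at −0.545 to 0.334 between mice in whole organoids, at 0.0289 to 0.213 and −0.143 to 0.151 in sorted cells after 72 h, and at −0.0709 to 0.16 and −0.204 to 0.205 in the irradiation experiment. With the mouse as a block, p-values weigh the difference between samples of the same mouse against an estimate of its spread. That estimate combines the variation of the gene from mouse to mouse with that of all other genes tested. It had 13.1 degrees of freedom for Alpi in whole organoids and 30.5 for Sis in the 72 h sorted cells. The SE is therefore not the spread between the mice of that gene alone. CPM are counts per 1e6 UMIs of a sample, so precision falls with the 575242 to 1104126 UMIs of the 72 h sorted samples.

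The 10 genes, the lists and the tests were chosen with earlier results of these data known. The lists were written from general knowledge. All 10 genes are named, with the 3 genes of smallest p among those past the threshold for each pathway list and the 5 genes most alike (Pearson r of mouse-centred log2 CPM, prior count 2). Villus tip and other markers named beyond these were chosen after their values were seen. Promoter windows (250 bases before and 50 after the start) are RefSeq sequences of GRCm38.p6, with 9 of the 10 genes matched. The test was tested on simulated data. Alternatives were DESeq2 1.42.0, scaling by RLE factors or by library size alone, other count filters, no mouse block, leaving out each mouse, the first technical replicate only and the 2 groups compared alone. Leaving out either library of VIP-treated mouse 3 was added after the data were seen.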

Additional observations from a re-analysis of the deposited data

Results flagged for a closer look

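Among the 44 combinations of a gene and a group of 4 samples that were tested, 8 held 1 sample whose gap to the nearest other exceeded Dixon's 95% critical value, where chance gives about 1 in 20. In untreated, irradiated cells the sample of mouse 4 was high for Anpep (98.9 CPM, others 22.2 to 27.0), Slc5a1 (149.7 CPM, others 74.8 to 80.0) and Mep1a (8.02 CPM, others 4.43 to 4.71). In VIP-treated, irradiated cells mouse 4 was high for Anpep (35.6 CPM, others 15.99 to 18.4). In VIP-treated, non-irradiated cells mouse 4 was low for Sis (14.01 CPM, others 23.7 to 24.6) and Anpep (6.7 CPM, others 12.7 to 13.4). In untreated, non-irradiated cells mouse 1 was high for Sis (87.9 CPM, others 25.6 to 28.8) and mouse 2 low for Mep1a (4.32 CPM, others 7.21 to 7.54). Of the 8, 6 were thus samples of mouse 4, on both sides of their groups.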

How the results depend on the processing

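Of the fold changes of single genes under the alternatives, 548 kept their direction and side of the threshold, 18 lost and 18 gained a call, and 52 changed sign. The mouse numbers mark the same animal. Without the replicate block, 1 member in place of 3 passed with VIP in whole organoids, and 1 in place of 2 with irradiation in untreated cells. The block changed no other count of members. DESeq2 gave 1, 1 and 0 members for VIP in whole organoids, irradiation in untreated cells and irradiation in VIP-treated cells, in place of 3, 2 and 1, and gave no adjusted p to 7 of 7 members for VIP without irradiation and to 2 of 10 in the interaction with the compartment. With all genes of any count, 1 member passed for VIP without irradiation (Sis), 2 for VIP after irradiation (Sis and Anpep), 4 for irradiation in untreated and 3 in VIP-treated cells. With only the 2 groups compared, 1 passed for VIP without irradiation and 3 for irradiation in VIP-treated cells. Leaving out 1 mouse gave 2 to 6 members for VIP in whole organoids (6 without mouse 3), 1 to 3 for irradiation in untreated and 0 to 1 in VIP-treated cells. Without the first library of VIP-treated mouse 3, 0 passed in whole organoids. The cause of these changes was not tested. Both interactions and VIP in 72 h sorted cells stayed at 0 in each alternative run.

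Changes of sign, all of genes not called in that comparison, follow as log2 values. For VIP in whole organoids, leaving out 1 mouse gave −0.0704 to 0.40 for Lct and −0.12 to 0.025 for Dpp4. Without the first library of VIP-treated mouse 3, Sis was 0.11, Slc5a1 0.024 and Dpp4 0.0304. Without the second library of VIP-treated mouse 3, Lct was −0.028. For VIP in sorted cells at 72 h, leaving out 1 mouse gave −0.12 to 0.85 for Sis and −0.39 to 0.21 for Dpp4. Without the block, Sis was −0.0028. For VIP without irradiation, leaving out 1 mouse gave −0.53 to 0.77 for Alpi, −0.55 to 0.0899 for Anpep, −0.0044 to 0.21 for Slc5a1, −0.47 to 0.10 for Mep1a and −0.18 to 0.074 for Dpp4. For VIP after irradiation, leaving out 1 mouse gave −0.47 to 0.084 for Dpp4. For irradiation in untreated cells, leaving out 1 mouse gave −0.10 to 0.28 for Dpp4. For irradiation in VIP-treated cells, leaving out 1 mouse gave −0.32 to 0.96 for Alpi and −0.17 to 0.15 for Dpp4. For the interaction with irradiation, leaving out 1 mouse gave −0.81 to 0.43 for Sis and −0.36 to 0.082 for Dpp4. For the interaction with the compartment, leaving out 1 mouse gave −0.70 to 1.82 for Alpi, −0.021 to 0.83 for Sis, −2.56 to 0.97 for Lct, −0.62 to 1.12 for Anpep, −3.84 to 0.72 for Slc15a1, −0.29 to 0.53 for Treh, −0.36 to 0.58 for Mep1a, −0.25 to 0.34 for Mep1b and −0.30 to 0.34 for Dpp4. With the non-irradiated cells of the irradiation experiment, Alpi was −0.997, Sis −0.71, Anpep −0.62, Slc5a1 0.24, Slc15a1 0.32 and Dpp4 0.018. Without the block, Anpep was −0.026, Treh −0.014, Mep1a −0.075 and Mep1b 0.22. With first libraries only, Slc5a1 was 0.084 and Dpp4 0.093. Without the second library of VIP-treated mouse 3, Slc5a1 was 0.066 and Dpp4 0.018. Depth limited the sorted cells most, where 7 genes after 72 h and 3 in the irradiation experiment were below the count filter.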
